A study of Homo sapiens with 8 samples.

Results

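The genes of the proteasome and of its assembly factors were followed through a 24 h exposure of 2 multiple myeloma (MM) cell lines to fluvastatin. Members were the protein-coding genes whose symbol begins with PSM, followed by a letter from A to G and a number, and whose expected counts summed to at least 80 over the 8 libraries. Of 19683 protein-coding genes among the 58219 genes listed, 48 had such a symbol and 47 reached that total. The member just above the minimum was PSMA8 with 611 counts, and the gene left out was the thymus-type subunit PSMB11 with 1 count. The 47 members were placed in 7 groups by their known roles. The core particle gave 8 alpha subunits and 7 constitutive beta subunits, and a further 3 beta subunits, PSMB8, PSMB9 and PSMB10, were kept apart as the inducible immunoproteasome subunits. The cap, or regulatory particle, gave 6 ATPases and 11 other subunits. Another 5 genes encode alternative activators or an inhibitor, and 7 encode assembly factors.

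Libraries came from H929 and KMS11, both established t(4;14)-positive MM lines, grown in RPMI 1640 with 10% FBS. Cells of each line received 2 µM fluvastatin, a statin, or ethanol as the solvent control, and RNA was taken at 24 h. There were 2 biological replicates of each line and treatment, and thus 8 libraries. Each line stands for a single tumor of origin, so that a difference between the lines cannot be assigned to any property they are known by. In bulk RNA, a lower level in every cell and fewer cells that express a gene cannot be told apart.

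The proteasome degrades proteins that carry ubiquitin chains. Its core is a stack of rings in which alpha subunits form the gates and beta subunits hold the proteolytic sites, and the cap binds ubiquitin chains, unfolds substrates with its ATPase ring and feeds them to the core. Plasma cells and MM cells secrete or retain much immunoglobulin and are known for their reliance on the proteasome, which is the target of bortezomib and related drugs.

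Total counts per library ranged from 26702515 to 41910446, of which 85.2 to 91.4% fell on protein-coding genes. Differential expression was tested for 13129 protein-coding genes with edgeR's quasi-likelihood test, and adjusted p values were obtained by the Benjamini-Hochberg method over all of them with a threshold of 0.05. All 47 members were among the genes tested. Comparisons between libraries use CPM, which are counts scaled by library size and TMM factors and correct for depth and composition but not for gene length, and comparisons between genes use TPM, which correct for length. The summed TPM of 8 plasma cell markers ranged from 1933 to 2061 in H929 in ethanol, 1654 to 1703 in H929 in fluvastatin, 898 to 919 in KMS11 in ethanol and 649 to 730 in KMS11 in fluvastatin. Within H929, SDC1 was at 122 and 97.7 TPM in ethanol and 61.1 and 44.1 TPM in fluvastatin, and MZB1 at 282 and 201 TPM and 136 and 87.4 TPM. PRDM1, at 58.4 and 52.7 TPM in ethanol and 68.2 and 67.6 TPM in fluvastatin, lay the other way, as did TNFRSF17, at 469 and 480 TPM in fluvastatin and lower in both ethanol libraries. CD38, a surface marker of plasma cells, was at 0.01 to 0.04 TPM in KMS11 against 21.2 to 26.9 TPM in H929. The 3 T cell markers summed to 1.55 to 1.63 TPM in H929 in ethanol, 3.42 to 4.25 TPM in H929 in fluvastatin and at most 0.45 TPM in KMS11, and CD3D was at 0 in 7 of 8 libraries. The monocyte and the fibroblast markers each summed to at most 0.17 TPM in any library, and CD14 and CSF1R were at 0 in all 8. The part of these marker levels in the results was not tested. The epithelial marker EPCAM was at 30.2 to 35.9 TPM in KMS11 and at most 0.04 TPM in H929. In KMS11, fluvastatin replicate 1 stood apart, since its difference in log2(CPM + 1) from the ethanol libraries was larger for genes of higher GC content (Pearson's r = 0.61 across the 13129 genes), whereas r was 0.13 for replicate 2. The counts of calls, the medians over the members and the calls of NFE2L1 and MAFF in KMS11 are therefore also given without it, whereas single values of members in KMS11 include it.

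In H929, proteasome genes fell broadly after fluvastatin. Of the 47 members, 31 fell and 0 rose, where 19.3% of all genes tested fell. PSMA8 had no counts in H929, so that 46 members could respond there. The median log2 fold change was -0.46 over the members and 0.02 over all genes tested. Both fluvastatin libraries lay below both ethanol libraries for 41 of the 47 members, an arrangement found for 33.5% of all genes tested, and only PSME4 had both libraries above. The constitutive core beta subunits gave the fullest set of calls, with 7 of 7 lower and a median of -0.70. The cap ATPases followed with 5 of 6 lower, the other cap subunits with 9 of 11 lower and the alpha subunits with 5 of 8 lower. Fewer members fell in the remaining groups, with 1 of 3 inducible beta subunits, 2 of 5 activators or inhibitors and 2 of 7 assembly factors. Differences between these groups of genes were not tested. Under 20 alternative analyses, 24 of the 31 calls were made every time, and the exceptions were PSMA2, PSMA6, PSMB10, PSMC1, PSMC2, PSMD7 and PSMD12. Each of these 7 calls was lost without H929 ethanol replicate 2, and some also without another H929 library. Those fits had a single library in a group, and the share of all genes that fell was smaller in them as well. The calls of PSMA2 and PSMC1 were also lost with limma on log2(TPM + 1) and on log2(TPM + 0.1). The log2 fold changes of the 7 genes stayed negative under every alternative, and the one nearest to 0 was -0.26 for PSMD12.

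**Figure D1:**
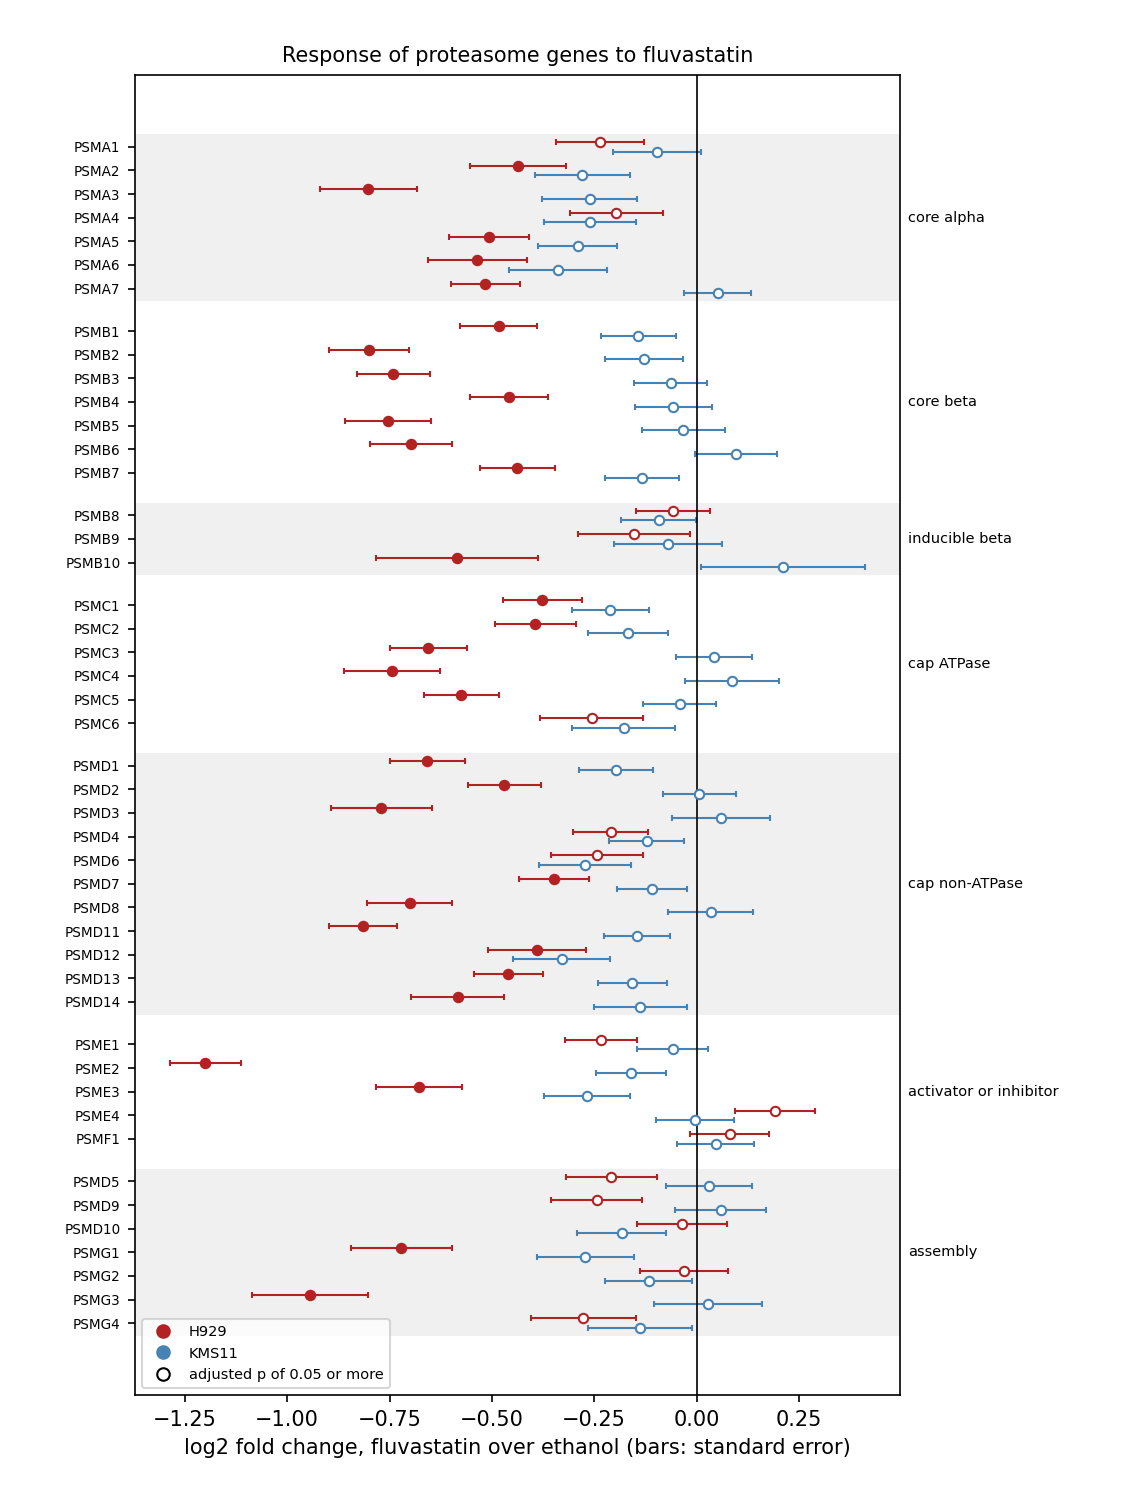
Log2 fold change of each proteasome gene, fluvastatin over ethanol, within H929 (red) and within KMS11 (blue), with the standard error as bars, from 2 libraries per line and treatment. Filled points passed an adjusted p of 0.05 and open points did not. In H929, 31 points are filled and lie left of 0, in KMS11 none is filled, and PSMA8, without counts in H929, is not drawn.

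PSME2 showed the largest fall in H929. It encodes a subunit of the ring-shaped activator that interferon gamma induces, which opens the core without ubiquitin. Its levels in H929 were 181 and 190 CPM in ethanol and 79.5 and 81.8 CPM in fluvastatin, so the groups were far apart. The log2 fold change was -1.20 with an SE of 0.09 (adjusted p = 1.08e-05). In KMS11 the levels were 152 and 162 CPM in ethanol and 142 and 139 CPM in fluvastatin, with a log2 fold change of -0.16 (SE 0.08, adjusted p = 0.294). The fluvastatin libraries were below the ethanol libraries here as well, but by a smaller distance. The response differed between the lines by 1.04 (SE 0.12, adjusted p = 0.000592), given here and below as the log2 fold change in KMS11 minus that in H929. PSME1 encodes the partner in the same ring and lies near PSME2 on chromosome 14 (GRCh38, PSME1 at 24136163 to 24138967 and PSME2 at 24143362 to 24147570). PSME1 was at 158 and 157 CPM in ethanol and 135 and 133 CPM in fluvastatin in H929, and its log2 fold change of -0.23 (SE 0.09) missed the threshold (adjusted p = 0.0557). PSME2 overlaps RNF31 on the opposite strand and has 6 named pseudogenes, and reads shared with them could not be assigned with certainty.

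The other activators did not move together. PSME3, which forms a nuclear activator ring, was at 161 and 165 CPM in ethanol and 91.7 and 112 CPM in fluvastatin in H929, and fell by 0.68 on the log2 scale (SE 0.11, adjusted p = 0.000746). In KMS11 it was at 321 and 333 CPM in ethanol and 266 and 278 CPM in fluvastatin, with a log2 fold change of -0.27 (SE 0.10, adjusted p = 0.178). The libraries were separated in both lines. PSME4, a large single-chain activator, was at 55.1 and 58.7 CPM in ethanol and 60.3 and 69.7 CPM in fluvastatin in H929 (log2 fold change 0.19, adjusted p = 0.143). PSMF1, an inhibitor of the core in vitro, was at 53.3 and 48.5 CPM in ethanol and 54.8 and 52.9 CPM in fluvastatin, and its log2 fold change was 0.08 (adjusted p = 0.536). PSME4 and PSMF1 were the members with a positive log2 fold change in H929.

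Of the catalytic subunits, the constitutive ones fell in H929, and of the inducible ones only PSMB10 did. PSMB5, which provides the chymotrypsin-like activity and is the main target of bortezomib, was at 71.2 and 73.4 CPM in ethanol and 42.8 and 43.0 CPM in fluvastatin. Its log2 fold change was -0.75 (SE 0.10, adjusted p = 0.000384), and replicates differed little beside it. PSMB6, the caspase-like subunit, was at 128 and 122 CPM in ethanol and 78.6 and 76.0 CPM in fluvastatin, with a log2 fold change of -0.70 (SE 0.10, adjusted p = 0.000468). PSMB7, the trypsin-like subunit, was at 135 and 142 CPM in ethanol and 101 and 103 CPM in fluvastatin, with a log2 fold change of -0.44 (SE 0.09, adjusted p = 0.00394). The ethanol and fluvastatin libraries were separated for all 3.

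Among the inducible counterparts, PSMB8, which replaces PSMB5, was at 66.3 and 67.5 CPM in ethanol and 63.0 and 65.5 CPM in fluvastatin in H929. Its log2 fold change was -0.06 (SE 0.09, adjusted p = 0.643). PSMB9, which replaces PSMB6, was at 19.9 and 19.5 CPM in ethanol and 18.8 and 16.7 CPM in fluvastatin, with a log2 fold change of -0.15 (SE 0.14, adjusted p = 0.398). For these 2 genes the fluvastatin libraries were lower by little more than the replicates differed. PSMB10, which replaces PSMB7, was at 54.0 and 48.4 CPM in ethanol and 37.9 and 30.4 CPM in fluvastatin, and fell by 0.59 on the log2 scale (SE 0.20, adjusted p = 0.0378). That call was lost without either H929 ethanol library or without H929 fluvastatin replicate 2, with the largest adjusted p at 0.199. PSMB8 and PSMB9 overlap each other and PSMB8-AS1 on chromosome 6, and PSMB9 also overlaps TAP1 on the opposite strand.

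**Figure D2:**
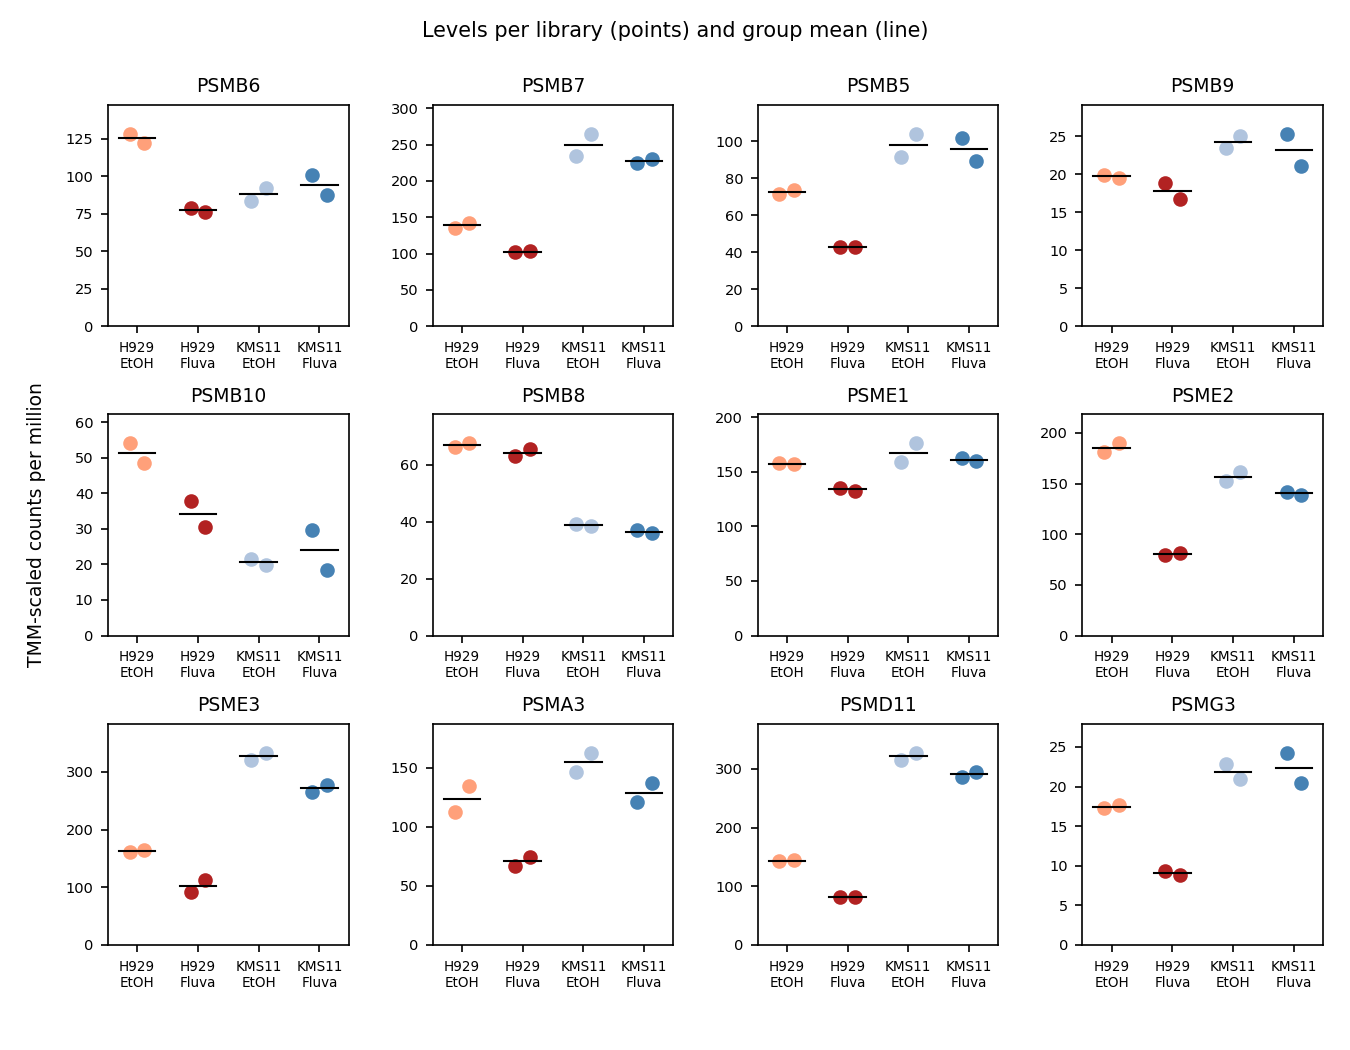
Levels of the 6 catalytic subunits, 3 activator subunits and PSMA3, PSMD11 and PSMG3 in CPM, scaled by TMM, with 1 point per library and a line at the mean of the 2 replicates of each group. In H929 the fluvastatin libraries lie well below the ethanol libraries for PSMB5, PSMB6, PSMB7, PSME2, PSME3, PSMA3, PSMD11 and PSMG3, and near them for PSMB8 and PSMB9.

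The makeup of the catalytic sites was described on the TPM scale within each library, as the inducible gene's share of the summed TPM of the inducible and the constitutive gene. In H929, PSMB8 made up 49.8 and 49.1% of PSMB8 plus PSMB5 in ethanol and 59.3 and 61.6% in fluvastatin. PSMB9 made up 13.9 and 14.3% of PSMB9 plus PSMB6 in ethanol and 20.2 and 18.1% in fluvastatin. Both shares were thus higher in the fluvastatin libraries, and PSMB5 and PSMB6 are the genes of these pairs that fell. PSMB10 made up 32.3 and 28.8% of PSMB10 plus PSMB7 in ethanol and 30.8 and 28.6% in fluvastatin, so that its groups overlapped. In KMS11 the share of PSMB8 was 30.0 and 26.4% in ethanol and 26.4 and 27.9% in fluvastatin. The share of PSMB9 in KMS11 was 22.7 and 22.2% in ethanol and 21.0 and 20.1% in fluvastatin, and that of PSMB10 was 12.3 and 10.5% in ethanol and 15.1 and 10.7% in fluvastatin. In ethanol, H929 therefore had the larger shares of PSMB8 and PSMB10, and KMS11 the larger share of PSMB9. These shares are of mRNA and say nothing of the subunits in assembled particles, and they were not tested.

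**Figure D3:**
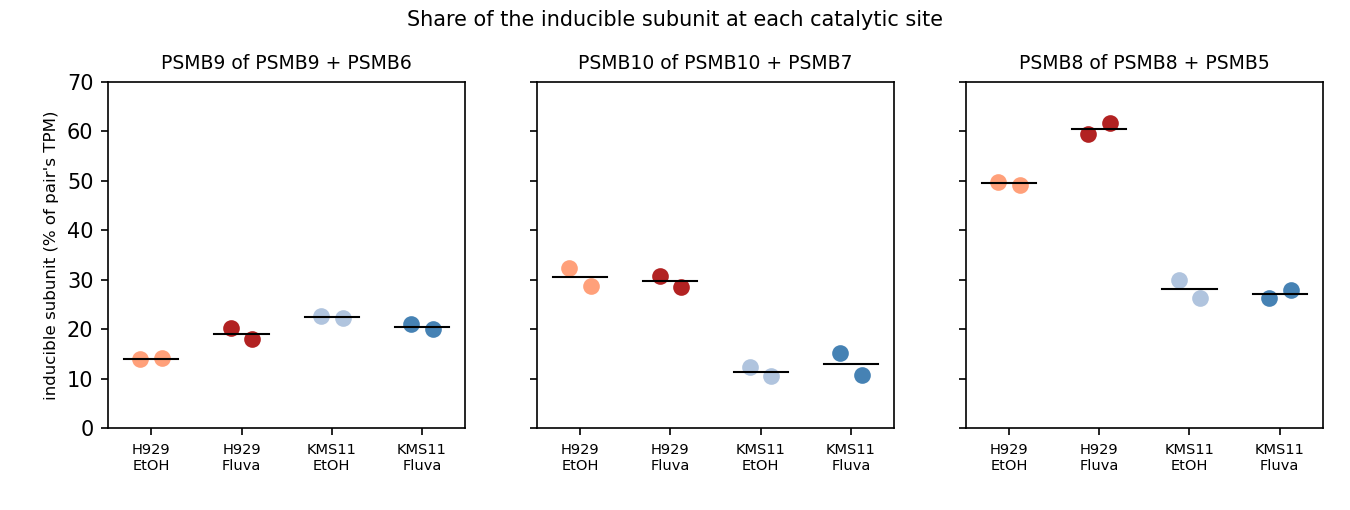
Share of the inducible subunit in the summed TPM of the inducible and constitutive genes at each of the 3 catalytic sites, in percent, with 1 point per library and a line at the group mean of 2 replicates. The share of PSMB8 in H929 lies near 49% in ethanol and near 60% in fluvastatin, and the share of PSMB10 is higher in H929 than in KMS11.

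The remaining core genes in H929 spanned a range. PSMA3, an alpha ring subunit on chromosome 14 (58244843 to 58272012), was at 113 and 134 CPM in ethanol and 67.1 and 74.4 CPM in fluvastatin, and showed the largest fall among the alpha subunits (log2 fold change -0.80, SE 0.12, adjusted p = 0.000551). PSMA4 was at 173 and 202 CPM in ethanol and 154 and 173 CPM in fluvastatin, with a log2 fold change of -0.20 (SE 0.11, adjusted p = 0.195), and PSMA1 had a log2 fold change of -0.24 (adjusted p = 0.106). The libraries of PSMA3 were separated by far more than the replicates, whereas those of PSMA4 overlapped slightly. PSMB2 fell the most of the 7 constitutive beta subunits, from 140 and 158 CPM in ethanol to 81.0 and 90.1 CPM in fluvastatin (log2 fold change -0.80, SE 0.10, adjusted p = 0.00018). PSMB7, described above, fell the least. PSMB4, the core subunit with the highest TPM in all 4 groups, was at 567 and 555 CPM in ethanol and 424 and 393 CPM in fluvastatin, and fell by 0.46 on the log2 scale (SE 0.09, adjusted p = 0.00345).

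In the cap, the fall in H929 reached the ATPase ring, the scaffold and the lid. PSMC4, an ATPase, was at 155 and 143 CPM in ethanol and 94.1 and 83.8 CPM in fluvastatin, with a log2 fold change of -0.74 (SE 0.12, adjusted p = 0.000773). PSMC6 was the ATPase that was not called, at 99.9 and 118 CPM in ethanol and 87.4 and 95.1 CPM in fluvastatin (log2 fold change -0.26, SE 0.13, adjusted p = 0.132). PSMD11, a lid subunit that braces the cap against the core, was at 143 and 144 CPM in ethanol and 81.6 and 81.3 CPM in fluvastatin. It showed the largest fall among the cap subunits (log2 fold change -0.81, SE 0.08, adjusted p = 6.21e-05), and its replicates were nearly equal. PSMD14, which removes ubiquitin chains, and the scaffold PSMD1 fell by 0.58 and by 0.66 on the log2 scale. PSMD4, a ubiquitin receptor, was at 390 and 368 CPM in ethanol and 336 and 319 CPM in fluvastatin, with a log2 fold change of -0.21 (SE 0.09, adjusted p = 0.0941). PSMD6 was the other cap subunit without a call, with a log2 fold change of -0.24 (adjusted p = 0.11).

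The assembly factors differed among themselves, also within known partners. PSMG1 and PSMG2 form a dimer that helps to build the alpha ring. In H929, PSMG1 was at 51.7 and 59.2 CPM in ethanol and 30.7 and 36.5 CPM in fluvastatin and fell by 0.72 on the log2 scale (SE 0.12, adjusted p = 0.00124). PSMG2 was at 56.9 and 61.9 CPM in ethanol and 55.5 and 60.7 CPM in fluvastatin, with a log2 fold change of -0.03 (SE 0.11, adjusted p = 0.846), so its groups overlapped. PSMG3 and PSMG4 form a second dimer that acts on the same ring. PSMG3 was at 17.3 and 17.6 CPM in ethanol and 9.36 and 8.78 CPM in fluvastatin, a fall of 0.94 on the log2 scale (SE 0.14, adjusted p = 0.000571). PSMG4 was at 19.3 and 20.5 CPM in ethanol and 17.0 and 15.9 CPM in fluvastatin (log2 fold change -0.28, SE 0.13, adjusted p = 0.111). The chaperones of the ATPase ring, PSMD5, PSMD9 and PSMD10, had log2 fold changes of -0.21, -0.24 and -0.04 and none passed the threshold (adjusted p from 0.105 to 0.827). PSMG3 overlaps PSMG3-AS1 on the opposite strand.

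In KMS11, 0 members passed the threshold in either direction with edgeR, where 0.533% of all genes tested fell. DESeq2 also called 0, and 9 members had a lower level at an unadjusted p under 0.05, where 8.23% of all genes tested did, and 0 a higher one. The median log2 fold change was -0.12 over the members and 0.00 over all genes tested, and 35 of 47 members had a negative value. Both fluvastatin libraries lay below both ethanol libraries for 25 of 47 members, against 26.5% of all genes tested, and above them for PSMA7. The alpha subunits had the lowest median, -0.26, and 5 of 8 of them had a lower level at an unadjusted p under 0.05. Without fluvastatin replicate 1 the count of calls was also 0, the median was -0.13 over the members and -0.19 over the alpha subunits, and the remaining fluvastatin library lay below both ethanol libraries for 33 of 47 members, against 37.5% of all genes tested. Without fluvastatin replicate 2 there were 3 lower calls, namely PSMA4, PSMA6 and PSMD12, where 4.84% of all genes tested were lower.

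The extremes in KMS11 were PSMA6 and PSMB10. PSMA6, an alpha ring subunit, was at 210 and 222 CPM in ethanol and 154 and 188 CPM in fluvastatin, with a log2 fold change of -0.34 (SE 0.12, adjusted p = 0.151). PSMB10 was at 21.5 and 19.9 CPM in ethanol and 29.6 and 18.6 CPM in fluvastatin, with a log2 fold change of 0.21 (SE 0.20, adjusted p = 0.556). For PSMB10, fluvastatin replicate 1 was above and replicate 2 below both ethanol libraries, and PSMB10 has the highest GC content of the members, 61.7%. PSMD12, a lid subunit, had the lowest value among the cap subunits, with 240 and 230 CPM in ethanol and 169 and 205 CPM in fluvastatin (log2 fold change -0.33, SE 0.12, adjusted p = 0.157). PSMD3, another lid subunit, was at 336 and 378 CPM in ethanol and 405 and 339 CPM in fluvastatin (log2 fold change 0.06, adjusted p = 0.807), so that its groups overlapped. PSMC1 and PSMC4 marked the range of the ATPases, at -0.21 (adjusted p = 0.231) and 0.09 (adjusted p = 0.687). Among the constitutive beta subunits, PSMB1 was at -0.14 (adjusted p = 0.382) and PSMB6 at 0.10 (adjusted p = 0.589), and PSMB5 at -0.03 (adjusted p = 0.885). PSMA7 was at 354 and 366 CPM in ethanol and 379 and 367 CPM in fluvastatin (log2 fold change 0.05, adjusted p = 0.744).

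The response was tested for a difference between the lines in the same fit. For 16 members the log2 fold change was higher in KMS11 than in H929 and for 0 it was lower, where 11.7% of all genes tested had a higher one. The median difference was 0.30 over the members and 0.00 over all genes tested. The called members were 4 of 7 constitutive beta subunits (PSMB2, PSMB3, PSMB5 and PSMB6), 3 of 6 ATPases (PSMC3, PSMC4 and PSMC5), 5 of 11 other cap subunits (PSMD1, PSMD2, PSMD3, PSMD8 and PSMD11), 2 of 8 alpha subunits (PSMA3 and PSMA7), PSME2 and PSMG3. Of these, PSME2, PSMG3, PSMC4, PSMD3, PSMD8 and PSMB6 were called under all 20 alternatives. PSMG3 differed by 0.97 (SE 0.19, adjusted p = 0.00708), and in KMS11 it was at 22.8 and 21.0 CPM in ethanol and 24.3 and 20.4 CPM in fluvastatin. PSMC4 differed by 0.83 (SE 0.16, adjusted p = 0.00694) and PSMB6 by 0.79 (SE 0.14, adjusted p = 0.00427). The difference for PSMB5 was 0.72 (SE 0.15, adjusted p = 0.00768), and this call was lost without KMS11 ethanol replicate 1 (adjusted p = 0.052). The inducible subunits gave no call, with PSMB10 at 0.80 (adjusted p = 0.0669), PSMB9 at 0.08 (adjusted p = 0.793) and PSMB8 at -0.04 (adjusted p = 0.884). Leaving out a library left a single library in its group, and the number of members called and the share of all genes called both changed with the library left out. Both were lowest without KMS11 ethanol replicate 1. With limma on log2(TPM + 1) 7 members were called and with the GC trend removed 33, where 5.77% and 22.8% of all genes tested had a higher response in KMS11. PSMA3 and PSMD1 were called under 11 and 10 of the 20 alternatives. The members' median difference without KMS11 fluvastatin replicate 1 was 0.34.

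When the lines were fitted together, with a term for the line, 8 members fell and 0 rose, where 3.93% of all genes tested fell. The median log2 fold change was -0.29 over the members against 0.03 over all genes tested, and 45 of 47 members (95.7%) had a negative value against 46.4% of all genes. A lower level at an unadjusted p under 0.05 was found for 24 members, where 14.1% of all genes had one. The called genes were the alpha subunits PSMA2, PSMA3, PSMA5 and PSMA6, the cap subunits PSMD1 and PSMD12, the activator PSME3 and the assembly factor PSMG1. Their log2 fold changes ran from -0.36 for PSMA2 (SE 0.09, adjusted p = 0.0468) and PSMD12 (SE 0.09, adjusted p = 0.0459) to -0.53 for PSMA3 (SE 0.13, adjusted p = 0.0382). PSMA5 fell by 0.40 (adjusted p = 0.0283), PSMD1 by 0.43 (adjusted p = 0.0401), PSMA6 by 0.44 (adjusted p = 0.0317), PSME3 by 0.47 (adjusted p = 0.032) and PSMG1 by 0.49 (adjusted p = 0.0389), all on the log2 scale. PSME2 had the lowest log2 fold change, -0.68 (SE 0.19), and missed the threshold (adjusted p = 0.0552). These 8 calls were all close to the threshold. Their number was 0 without KMS11 ethanol replicate 2 or without any one of the H929 libraries, 14 without KMS11 fluvastatin replicate 2, where 6.42% of all genes fell, and 12 without KMS11 fluvastatin replicate 1, where 5.05% did. It was 19 with DESeq2 and 23 with the GC trend removed, where 9.4% and 13.3% of all genes fell, and 0 with a replicate block, where 0.114% did. The members' median without KMS11 fluvastatin replicate 1 was -0.35.

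The response of the members was also set against the GC content of each gene's longest transcript, as a description across genes that share the same libraries. PSMA8 was left out for H929. In KMS11 the log2 fold change was higher for members of higher GC content, with Pearson's r = 0.71 over 47 members and 0.32 over all 13129 genes. By library, r over the members was 0.79 for KMS11 fluvastatin replicate 1 and 0.18 for replicate 2. In H929, r over 46 members was -0.09 for replicate 1 and -0.40 for replicate 2. The median GC content was 38.9% for the alpha subunits, 49.8% for the constitutive beta subunits and 53.8% for the inducible ones, against 47.5% over all genes tested. Of the 7 groups, the alpha subunits had the lowest GC content and the lowest median response in KMS11. With the trend of each library with GC content removed, the median over the alpha subunits in KMS11 was -0.18 in place of -0.26, and the members called lower were 3 (PSMA6, PSMD4 and PSMD12), where 4.86% of all genes were. The part of GC content in the difference between the lines was not tested beyond this fit, in which 33 members had a higher response in KMS11, where 22.8% of all genes tested did.

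**Figure D4:**
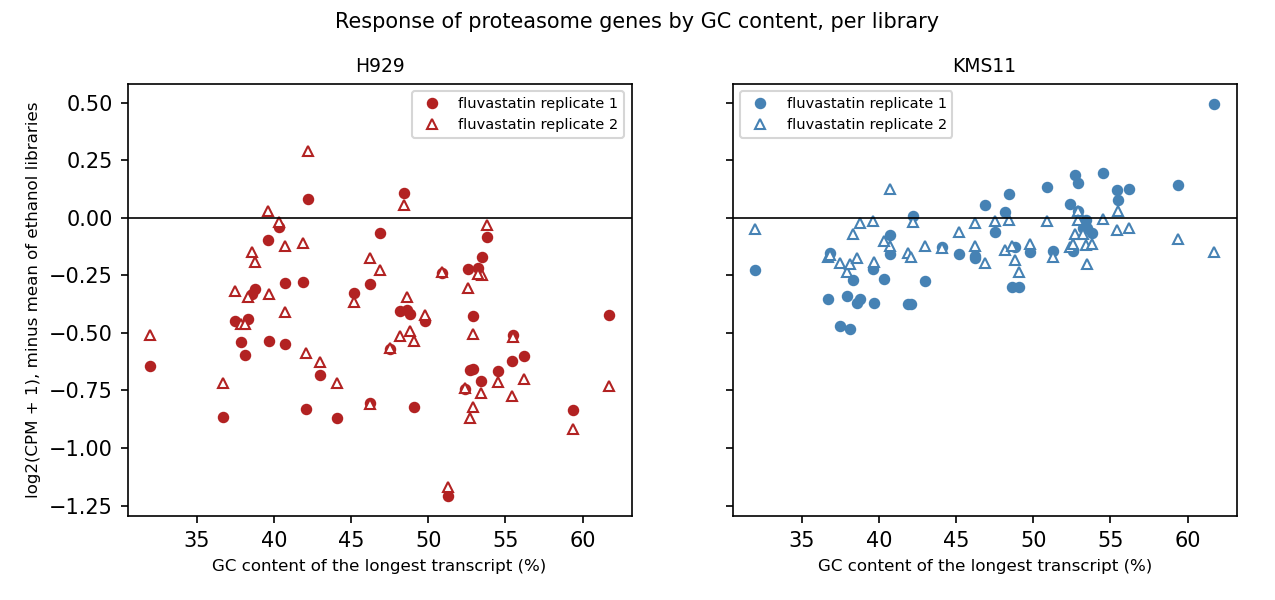
Log2(CPM + 1) in each fluvastatin library minus its mean over the ethanol libraries of the line, for the 47 proteasome genes in KMS11 and those with counts in H929, against the GC content of the longest transcript in percent. Filled circles are replicate 1 and open triangles replicate 2. The circles of KMS11 climb with GC content (Pearson's r = 0.79) and the triangles do so weakly (r = 0.18).

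Under the solvent control at 24 h, 36 of 47 proteasome genes differed in level between the lines, where 72.0% of all genes tested did. In ethanol, 29 members were higher in KMS11 than in H929, where 35.6% of all genes tested were higher, and 7 were lower, where 36.4% of all genes were lower. The median log2 difference was 0.43 over the members and -0.02 over all genes tested. On log2(TPM + 1) the median of all genes itself shifts by 0.32 toward KMS11, which is why CPM is used between the lines, and with the GC trend removed the members' median was 0.19. The largest called differences of members with counts in both lines were those of PSMD5 (1.54, SE 0.11, adjusted p = 9.81e-07) and PSMD2 (1.42, SE 0.09, adjusted p = 4.85e-07), and the inhibitor PSMF1 was also higher in KMS11 (1.22, SE 0.10, adjusted p = 2.07e-06). PSMD5, an assembly chaperone of the ATPase ring, was at 94.3 and 98.5 CPM in KMS11 and 31.9 and 34.3 CPM in H929 in ethanol. PSMD2, a scaffold subunit of the cap like PSMD1, was at 602 and 654 CPM in KMS11 and 243 and 226 CPM in H929. In both cases the lines were far apart beside the spread of their replicates.

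The inducible beta subunits went the other way or were not called. PSMB10 was at 21.5 and 19.9 CPM in KMS11 and 54.0 and 48.4 CPM in H929 in ethanol, lower in KMS11 by a log2 difference of -1.31 (SE 0.20, adjusted p = 0.000218). On the TPM scale the lines were closer, at 28.8 and 25.3 TPM in KMS11 and 38.4 and 33.4 TPM in H929. The log2 difference nearest to 0 over the alternatives was -0.37. PSMB8 was at 39.1 and 38.5 CPM in KMS11 and 66.3 and 67.5 CPM in H929, a log2 difference of -0.78 (SE 0.09, adjusted p = 2.94e-05). The call of PSMB8 was lost with limma on log2(TPM + 0.1) (adjusted p = 0.0504). PSMB9 was at 23.5 and 25.1 CPM in KMS11 and 19.9 and 19.5 CPM in H929, a log2 difference of 0.30 that missed the threshold (SE 0.13, adjusted p = 0.0665). The other members lower in KMS11 were PSMD9 at -0.70 (adjusted p = 0.000257), PSMB6 at -0.51 (adjusted p = 0.00105), PSMC3 at -0.31 (adjusted p = 0.013), PSMD4 at -0.24 (adjusted p = 0.0382) and PSME2 at -0.24 (adjusted p = 0.0273), of which PSMB6, PSMC3, PSMD4 and PSME2 turned positive on the TPM scale and PSMC3 and PSMD4 also with the GC trend removed. The calls of PSMC3, PSMD4 and PSME2 were lost without KMS11 ethanol replicate 1, KMS11 ethanol replicate 2 or H929 ethanol replicate 1, with adjusted p up to 0.107, 0.847 and 0.228 over the alternatives. Constitutive and inducible partners therefore differed in direction at one site (PSMB5 at 0.43, adjusted p = 0.00331, against PSMB8) and at another (PSMB7 at 0.85, adjusted p = 1.89e-05, against PSMB10). At the remaining site the signs were reversed, with PSMB6 at -0.51 and PSMB9, which was not called, at 0.30.

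**Figure D5:**
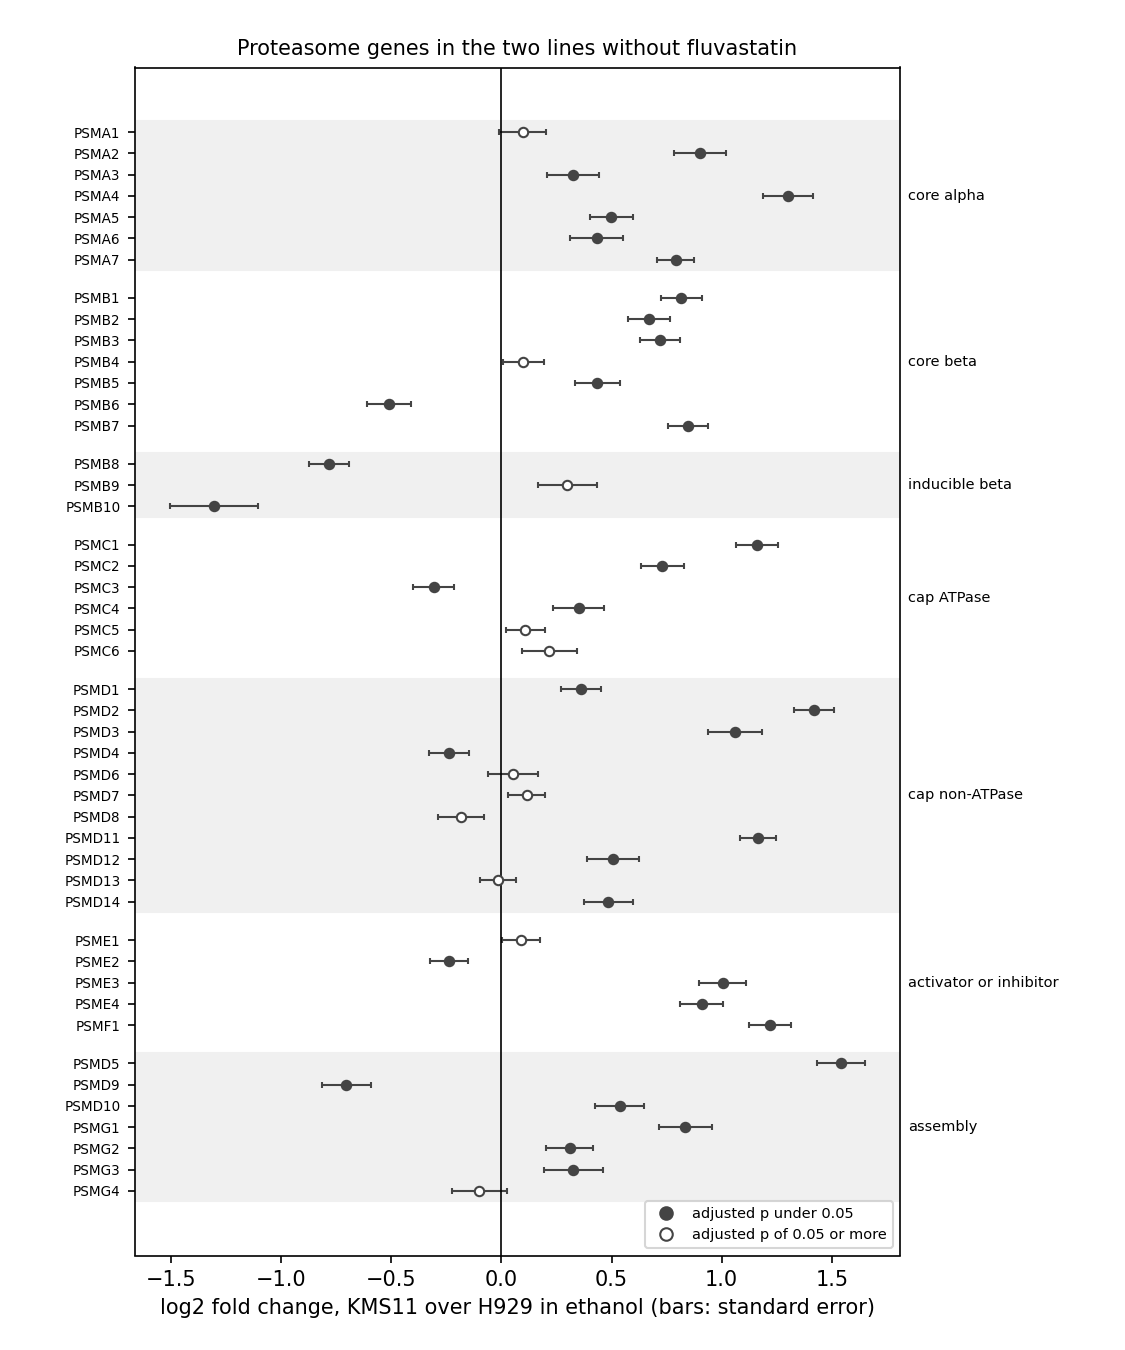
Log2 fold change of each proteasome gene in KMS11 over H929 in ethanol, from TMM-scaled counts with 2 libraries per line, with the standard error as bars. Filled points passed an adjusted p of 0.05. Most points lie right of 0, PSMB8 and PSMB10 lie left of it, PSMB6, PSMC3, PSMD4 and PSME2 turn positive on the TPM scale, and PSMA8, without counts in H929, is not drawn.

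PSMA8, a testis-type alpha subunit on chromosome 18 (26133852 to 26193355), was the only member without counts in a line. It had 0 counts in each of the 4 H929 libraries, and in KMS11 it had 178 and 167 counts in ethanol and 112 and 154 counts in fluvastatin. Against a floor of 3 counts per library in H929, its mean level in KMS11 in ethanol, 4.20 CPM when scaled by the total count, was at least 41.1-fold higher. Its response in KMS11 was a log2 fold change of -0.19 (SE 0.22, adjusted p = 0.644).

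On the TPM scale, which allows genes to be compared within a group, levels of subunits that are built into the core in equal number were spread widely. In H929 in ethanol, PSMB4 was at 330 ± 8.43 TPM (SD, n = 2) and PSMB5 at 33.3 ± 0.615 TPM, the highest and the lowest of the 14 constitutive core subunits, a 9.92-fold range. The same genes were at the ends in the other 3 groups, with ranges of 11.9-fold in H929 in fluvastatin, 7.44-fold in KMS11 in ethanol and 7.36-fold in KMS11 in fluvastatin. Assembly factors had lower levels, with a median of 20.5 TPM in H929 and 23.0 TPM in KMS11 in ethanol, against 49.8 and 101 TPM over all members. PSMD5 was the lowest of them in H929 at 5.21 ± 0.347 TPM, and PSME4 was the lowest activator in both lines, at 5.10 ± 0.311 TPM in H929 and 13.1 ± 0.990 TPM in KMS11. The summed TPM of the 47 members was 2983 and 3093 in H929 in ethanol and 2151 and 2234 in fluvastatin, and 6147 and 6049 in KMS11 in ethanol and 4675 and 5334 in fluvastatin. Between the treatments the median of all genes on log2(TPM + 1) itself shifted by -0.08 in KMS11 and by 0 in H929.

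A list of 36 genes that act with the proteasome was counted beside the members, from transcription factors and chaperones to ubiquitin genes, shuttle factors and antigen processing genes. All 36 were tested. In H929, 7 rose and 9 fell, where 22.7% of all genes tested rose and 19.3% fell. In KMS11, 2 rose and 1 fell, where 2.58% of all genes rose and 0.533% fell. Across both lines, 3 rose and 1 fell, where 6.5% of all genes rose and 3.93% fell. NFE2L1, the transcription factor known to induce proteasome genes when proteasome activity is short, rose while the members fell in H929. It was at 110 and 99.7 CPM in ethanol and 237 and 199 CPM in fluvastatin in H929, a log2 fold change of 1.05 (adjusted p = 0.000124). In KMS11 it was at 191 and 191 CPM in ethanol and 307 and 255 CPM in fluvastatin, a log2 fold change of 0.55 (adjusted p = 0.039). The response of NFE2L1 differed between the lines by -0.50 (SE 0.17), which missed the threshold (adjusted p = 0.0562). With KMS11 fluvastatin replicate 1 left out, that difference was -0.62. Without KMS11 fluvastatin replicate 1 the log2 fold change in KMS11 was 0.41 (SE 0.12) and the call was lost (adjusted p = 0.146). Both fluvastatin libraries were above the ethanol libraries in each line on the CPM scale. On the TPM scale, which divides by the effective length of the isoforms RSEM assigned, NFE2L1 was at 17.6 and 16.3 TPM in ethanol and 39.0 and 36.3 TPM in fluvastatin in H929, but at 58.3 and 54.2 TPM in ethanol and 57.1 and 60.5 TPM in fluvastatin in KMS11, where the groups overlapped.

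Other genes of the list went in several directions. DDI2, the protease that activates the NFE2L1 protein, fell in H929 by 0.51 on the log2 scale (adjusted p = 0.0052) and had a log2 fold change of -0.16 in KMS11 (adjusted p = 0.433). VCP, the ATPase that extracts ubiquitylated proteins for degradation, fell by 0.33 on the log2 scale in the fit across both lines (adjusted p = 0.0467). Its log2 fold change was -0.49 within H929 (adjusted p = 0.00155) and -0.17 within KMS11, where it was not called (adjusted p = 0.28). MAFF, a small partner protein of NFE2L1, rose in the fit across both lines with a log2 fold change of 1.17 (adjusted p = 0.0325). Within H929 MAFF was not called (0.81, adjusted p = 0.0541). Its level was low, at 1.23 and 1.75 CPM in KMS11 in ethanol. Within KMS11, MAFF was the other gene of the list that rose (1.58, adjusted p = 0.0402), and this call too was lost without KMS11 fluvastatin replicate 1 (adjusted p = 0.0728). POMP, which matures the core, had log2 fold changes of -0.28 in H929 (adjusted p = 0.11) and -0.21 in KMS11 (adjusted p = 0.36).

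TAP1, a peptide transporter subunit of antigen processing, is the head-to-head neighbor of PSMB9, and their nearest annotated starts are 488 bases apart on chromosome 6. TAP1 was at 93.4 and 91.4 CPM in ethanol and 168 and 157 CPM in fluvastatin in H929 and rose by 0.82 on the log2 scale (adjusted p = 0.000126). In the same libraries PSMB9 had a log2 fold change of -0.15 and was not called. In KMS11, TAP1 was at 114 and 117 CPM in ethanol and 136 and 120 CPM in fluvastatin (log2 fold change 0.14, adjusted p = 0.385), and its response differed between the lines by -0.67 (adjusted p = 0.00658). PSMB9 and TAP1 overlap, and the strand setting of the counting is not given in the sources used here.

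The promoters of the members were read for the antioxidant response core TGACNNNGC, a motif bound by NFE2L1 and related factors, since members of each of the 7 groups fell in H929. Promoters were windows of 300 bases from RefSeq (GRCh38.p14), 250 before and 50 after the start, and 41 of 47 members had one. The core was found on either strand in 15 of these 41 members (36.6%), in 19.4% of the tested genes with a promoter and in 13.3% of all promoters. The median log2 fold change in H929 was -0.39 for the members with the core and -0.46 for those without, and in KMS11 it was -0.06 and -0.14. The CCAAT box (CCAAT on either strand) was found in 19 of 41 members (46.3%), against 44.2% of tested genes and 34.6% of all promoters, and the median log2 fold change in H929 was -0.58 with it and -0.33 without it. These shares and medians are descriptions, and a match is not a known site. The windows with the core nearest to the start are shown from 4 groups, an ATPase, a lid subunit, an activator and an assembly factor, with every match in capitals, on the strand of the gene. The center of the nearest match lies 31 bases after the start in PSMC4, and 33, 30 and 35 bases before it in PSMD3, PSME4 and PSMG2.
PSMC4, chr19:39970915-39971214, plus strand: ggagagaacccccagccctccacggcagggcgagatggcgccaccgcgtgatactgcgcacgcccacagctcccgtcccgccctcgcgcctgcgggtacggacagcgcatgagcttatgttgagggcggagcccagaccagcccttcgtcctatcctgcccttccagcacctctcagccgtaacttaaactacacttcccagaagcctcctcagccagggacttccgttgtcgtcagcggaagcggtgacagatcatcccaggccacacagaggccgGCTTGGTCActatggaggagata
PSMD3, chr17:39980557-39980856, plus strand: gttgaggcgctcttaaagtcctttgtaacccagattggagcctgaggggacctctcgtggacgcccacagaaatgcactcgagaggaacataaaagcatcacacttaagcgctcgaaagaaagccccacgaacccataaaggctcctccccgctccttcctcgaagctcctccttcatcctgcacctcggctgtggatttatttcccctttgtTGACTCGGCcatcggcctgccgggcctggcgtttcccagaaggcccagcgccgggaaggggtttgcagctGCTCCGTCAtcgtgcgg
PSME4, chr2:53970944-53971243, minus strand: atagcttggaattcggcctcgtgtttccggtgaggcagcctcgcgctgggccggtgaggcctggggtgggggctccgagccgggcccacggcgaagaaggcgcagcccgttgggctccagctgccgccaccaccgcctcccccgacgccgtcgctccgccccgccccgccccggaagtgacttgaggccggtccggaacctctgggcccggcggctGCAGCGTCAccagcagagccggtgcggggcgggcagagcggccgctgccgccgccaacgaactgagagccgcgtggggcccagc
PSMG2, chr18:12658488-12658787, plus strand: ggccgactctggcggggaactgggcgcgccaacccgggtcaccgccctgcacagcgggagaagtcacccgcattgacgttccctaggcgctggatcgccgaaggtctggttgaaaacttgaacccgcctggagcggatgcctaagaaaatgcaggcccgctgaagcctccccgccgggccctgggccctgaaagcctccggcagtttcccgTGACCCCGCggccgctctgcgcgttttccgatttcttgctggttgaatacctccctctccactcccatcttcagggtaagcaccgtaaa
Of these 4 genes, PSMC4 and PSMD3 fell in H929 and PSME4 and PSMG2 did not pass the test. The 4 were chosen by group and by the distance of the match to the start. Whether a match goes with the response was not tested. The window of PSMB9 is shown as well, chosen after the values of PSMB9 and TAP1 were seen, because most of it lies between the nearest annotated starts of these genes. It holds the core centered 144 bases before the start of PSMB9.
PSMB9, chr6:32853942-32854241, plus strand: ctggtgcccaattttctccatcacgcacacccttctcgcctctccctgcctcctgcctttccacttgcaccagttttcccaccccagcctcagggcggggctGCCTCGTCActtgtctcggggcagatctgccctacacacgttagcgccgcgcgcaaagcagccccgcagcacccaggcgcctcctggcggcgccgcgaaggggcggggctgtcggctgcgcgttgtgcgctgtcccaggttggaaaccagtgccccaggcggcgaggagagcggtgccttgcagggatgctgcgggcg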

How the data were processed

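Total RNA was isolated with an RNeasy kit from H929 and KMS11 cells, and the authors prepared stranded, ribosomal RNA-depleted libraries (TruSeq Stranded Total RNA with RiboZero Gold) and sequenced them as paired-end reads of 75 bases. They aligned reads to GRCh38 with STAR 2.5.2b and estimated abundance with RSEM 1.3.0 and GENCODE release 26. The strand setting of the counting is not given in the sources used here. The deposited expected counts are the authors' RSEM estimates without normalization, in which fragments shared by several genes are divided. They also deposited the effective length of each gene and TPM, which are scaled by that length to a fixed sum. The deposited FPKM values were not used, since they carry the same abundances as TPM.

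GENCODE release 44, in which 57392 identifiers were found, gave symbols, biotypes and positions. Of the 47 members, 25 overlap a gene on the opposite strand, 13 overlap another on the same strand and 17 have named pseudogenes, and their counts are less certain. After rounding, counts were fitted with edgeR 4.0.16 under R 4.3.3 (filterByExpr at min.count 10 and min.total.count 15, TMM, quasi-likelihood F test, Benjamini-Hochberg over 13129 protein-coding genes). One fit had terms for line and treatment. The other had 4 group means and gave the responses within lines, their difference and the comparison of lines in ethanol. Dividing a log2 fold change by the root of its F gave the SE. These fits had common dispersions of 0.0316 and 0.0125. Replicates of a group differed by more than counting error (chi-square per degree of freedom of 9.52 to 35.8), so no library was taken as a duplicate, and with 2 replicates per group the spread between replicates rather than the depth limits the precision.

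Members and gene lists were chosen with earlier results of these data known. Named are the catalytic subunits, activators, inhibitor and assembly factors, the members at the ends of each other group in each line, those past the threshold in KMS11 or across both lines, and of the list of 36 genes those past these thresholds with NFE2L1, POMP and TAP1. DDI2, PSMA1, PSMB3, PSMB4, PSMC2, PSMC3, PSMC5, PSMD2, PSMD6, PSMD7, PSMD8 and PSMD14 lie outside this rule and were named after their values were seen. Alternatives were DESeq2 1.42.0, limma 3.58.1 on log2(TPM + 1) and log2(TPM + 0.1), 2 other scalings, no filter and a minimum count of 50, all annotated genes, no line term, a replicate block, GC and length trends as offsets, and leaving out each library. Promoters came from a RefSeq table that holds 41 of the 47 members, and GC content was that of the longest GENCODE transcript. Protein sequences were not analysed here, and values of some listed genes are not reported.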

Additional observations from a re-analysis of the deposited data

Results flagged for a closer look

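For 16 members the lines differed in their response to fluvastatin by the test of the difference itself (edgeR quasi-likelihood test, adjusted p under 0.05 over all genes tested). By the same test, 11.7% of all genes tested had a higher response in KMS11. Of the 16 calls, 6 were made under every alternative, namely those of PSME2, PSMG3, PSMC4, PSMD3, PSMD8 and PSMB6. The differences, as the log2 fold change in KMS11 minus that in H929, were 1.04 for PSME2, 0.97 for PSMG3, 0.83 for PSMC4, 0.83 for PSMD3, 0.79 for PSMB6, 0.74 for PSMD8, 0.72 for PSMB5 and 0.70 for PSMC3. They were 0.68 for PSMB3, 0.67 for PSMB2, 0.67 for PSMD11, 0.57 for PSMA7, 0.54 for PSMA3, 0.53 for PSMC5, 0.48 for PSMD2 and 0.46 for PSMD1. Each of the 16 fell in H929, where 19.3% of all genes tested fell. Choosing genes by a higher response in KMS11 favors genes that fell in H929, since the same H929 libraries enter both tests. The share over all genes is therefore no reference for the 16. None of the 16 passed an adjusted p of 0.05 in KMS11 in the same fit, where only 0.533% of all genes tested fell.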

How the results depend on the processing

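The 31 calls within H929 and the 36 calls between the lines in ethanol stayed within 1.5 times their number under all alternatives run. With all libraries kept, the alternatives gave 29 to 43 calls within H929, where 15.9 to 36.7% of all genes fell (19.3% in the main fit). Between the lines they gave 31 to 46, where 59.2 to 76.8% of all genes were called in either direction (72.0% in the main fit). Single calls were less stable than their number. Under every alternative, 24 of the 31 and 22 of the 36 were made. Beside each count below stands the share of all genes called in the members' direction. Across both lines the 8 calls (3.93%) became 19 with DESeq2 (9.4%), 18 with limma on log2(TPM + 1) (5.9%), 18 on log2(TPM + 0.1) (6.93%), 23 with the GC trend removed (13.3%), 21 with the GC and length trends removed (12.8%) and 0 without a cell line term (0%), and leaving out each library gave 0 to 14 (0.164 to 6.42%). Within KMS11 the 0 calls (0.533%) became 3 with the GC trend removed (4.86%) and 3 with the GC and length trends removed (5.26%), and leaving out each library gave 0 to 3 (0.00747 to 4.84%). The 16 differences between the responses (11.7%) became 7 with limma on log2(TPM + 1) (5.77%), 7 on log2(TPM + 0.1) (5.52%), 33 with the GC trend removed (22.8%) and 32 with the GC and length trends removed (23.3%), and leaving out each library gave 9 to 18 (5.09 to 17.5%). The replicate numbers were not shown to pair the samples, since deviations of libraries with the same number correlated at 0.298 in H929 and 0.034 in KMS11. With a replicate block the calls were 0 across both lines (0.114%), 4 within KMS11 (3.63%), 33 within H929 (23.2%) and 21 for the difference (17.2%). With a replicate block and the GC trend removed they were, in the same order, 0 (0.427%), 13 (12%), 43 (36.7%) and 36 (28.5%). For the lines in ethanol no block could be fitted, since the block holds the line. No member that was called changed sign in the 4 comparisons that involve fluvastatin. Between the lines in ethanol, signs turned with limma on log2(TPM + 1) for PSME2 (0.33), PSMB6 (0.009), PSMD4 (0.395) and PSMC3 (0.674) and on log2(TPM + 0.1) for PSME2 (0.332), PSMB6 (0.009), PSMD4 (0.396) and PSMC3 (0.68). With the GC trend removed they turned for PSMA3 (-0.01), PSMG2 (-0.036), PSMD4 (0.013) and PSMC3 (0.144), and with the GC and length trends removed for PSMG2 (-0.03), PSMC3 (0.123) and PSMD1 (-0.053). The cause of these changes was not tested.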
